A study of Mus musculus with 4 samples.

Results

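The gastrointestinal endoderm genes described here are 10 named genes of stomach and intestinal epithelium, Pgc, B4galnt2, Cdx2, Cdx1, Vil1, Lgals4, Cdh17, Muc13, Tff3 and Fabp1, out of 55397 genes listed. They were chosen by name, with their measured differences between the Prox1 knockout and control libraries already known, so every comparison of these 10 genes between the groups is a description with no test. RNA was sequenced in bulk from primary mouse embryonic fibroblasts (MEFs) of E13.5 C57BL/6J embryos, all homozygous for a conditional Prox1(fl/fl) allele. PROX1 is a homeobox transcription factor of hepatocytes, and the experiment asked how its loss affects the conversion of fibroblasts into induced hepatocytes. Every culture received the lentiviral reprogramming cassette 4in1 and was grown in hepatocyte medium to day 14. The Prox1 KO group (2 libraries) also received a Cre-GFP virus (4in1 + cre-GFP), and the control group (2 libraries) received an inactive delta Cre-GFP virus (dcreGFP), which leaves the floxed alleles in place. The cells were cultures transduced as a whole, so a library can hold cells at any stage of conversion and cells in which recombination did not take place. Libraries of both groups carry the replicate numbers 1 and 2, and values are given within these numbers. The study used the MEF line as a covariate but does not say which library came from which line, so taking the replicate number for the line is an assumption.

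The epithelium of stomach and intestine arises from the embryonic gut endoderm, as does the liver. In the intestine, the homeobox factors CDX2 and CDX1 maintain the epithelial programme, and absorptive cells carry an apical brush border of microvilli that is bundled by villin and loaded with transporters and digestive enzymes. Goblet cells release mucins and trefoil peptides, and chief cells of the stomach release pepsinogens. Several genes of this group are also known from other epithelia: villin, for instance, is made in kidney tubules, bile ducts and yolk sac, and Fabp1 is abundant in liver.

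The 4 libraries held 42469031 to 48524008 reads on genes. Values are normalized counts, that is, reads per gene divided by a size factor of each library, and 3 reads corresponded to 2.75 to 3.19 normalized counts. For Prox1, the targeted gene, 72.7 and 61.6 normalized counts were found in replicates 1 and 2 of the libraries labelled Prox1 KO, against 60.6 and 25.5 in the control libraries, so its level did not fall with the label. On the log2 scale the difference was 0.75 ± 0.27 (SE), with a limma adjusted p = 0.0936 (0.0363 when genes with a mean of 1 or more were tested). A count over the whole gene also includes exons outside a deleted segment, so it does not check the deletion, and the groups are therefore named by their labels throughout.

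Of the 10 genes, 6 were covered by more than 3 reads in at least 1 library and 4 were at or under 3 reads in all libraries. The 250 bases before the annotated start of transcription are shown for Pgc and B4galnt2, which had the largest differences, for Vil1, which had the highest level, and for Cdx2 and Fabp1, which had no read in any library. They are RefSeq sequences on build GRCm38.p6, where 7 of the 10 genes matched an entry. Cdx1, Cdh17 and Tff3 had no entry. Start sites here are those of RefSeq, and they can differ from the GENCODE gene coordinates given below. Of the windows shown, those of B4galnt2, Vil1, Cdx2 and Fabp1 end inside these gene coordinates. The windows lie at chr17:47726592-47726841 (plus strand, Pgc), chr11:95914872-95915121 (minus strand, B4galnt2), chr1:74409134-74409383 (plus strand, Vil1), chr5:147307250-147307499 (minus strand, Cdx2) and chr6:71199629-71199878 (plus strand, Fabp1). Each is written 5′ to 3′ toward the gene, and capitals mark a match to 1 of 6 short motifs on either strand.
Pgc: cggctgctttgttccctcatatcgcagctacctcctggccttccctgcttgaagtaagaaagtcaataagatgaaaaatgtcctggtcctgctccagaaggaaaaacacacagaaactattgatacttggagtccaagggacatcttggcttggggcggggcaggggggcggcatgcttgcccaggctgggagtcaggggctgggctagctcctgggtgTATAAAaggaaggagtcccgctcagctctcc
B4galnt2: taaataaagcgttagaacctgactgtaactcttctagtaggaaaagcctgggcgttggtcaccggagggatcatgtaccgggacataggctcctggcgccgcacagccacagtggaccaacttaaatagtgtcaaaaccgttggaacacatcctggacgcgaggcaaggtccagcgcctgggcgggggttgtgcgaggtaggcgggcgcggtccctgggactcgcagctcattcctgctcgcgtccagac
Vil1: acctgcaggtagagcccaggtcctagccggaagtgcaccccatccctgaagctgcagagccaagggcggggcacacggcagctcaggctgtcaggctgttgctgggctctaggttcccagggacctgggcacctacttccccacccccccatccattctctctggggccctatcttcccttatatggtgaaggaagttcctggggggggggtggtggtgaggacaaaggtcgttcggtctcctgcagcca
Cdx2: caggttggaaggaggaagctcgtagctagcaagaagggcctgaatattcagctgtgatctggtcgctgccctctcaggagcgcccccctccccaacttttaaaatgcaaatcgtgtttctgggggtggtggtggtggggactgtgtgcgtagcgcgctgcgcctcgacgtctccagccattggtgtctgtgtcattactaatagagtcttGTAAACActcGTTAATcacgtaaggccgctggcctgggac
Fabp1: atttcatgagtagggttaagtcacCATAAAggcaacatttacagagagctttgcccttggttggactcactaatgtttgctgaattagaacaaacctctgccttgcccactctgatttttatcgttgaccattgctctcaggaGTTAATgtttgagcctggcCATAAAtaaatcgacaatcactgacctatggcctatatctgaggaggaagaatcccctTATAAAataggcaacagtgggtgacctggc

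The motifs searched were GTTAAT for the HNF1 family, CAAAGTC for the HNF4 family, TGTTTAC for the FOXA family, AGATAA for the GATA family, TTTATG for the CDX family and TATAAA for the TATA box. No match overlapped another in these windows. The Pgc window held a TATA box whose first base lay 31 bases before the start site. B4galnt2, Vil1 and also Lgals4 (chr7:28833544-28833793, plus strand) held none of the 6 motifs. The Cdx2 window held an HNF1 match 30 bases and a FOXA match 40 bases before the start. Fabp1 held an HNF1 match at 107 bases, CDX matches at 226 and 88 bases and a TATA box at 30 bases before the start. Muc13 has 2 annotated starts, and the window of 1 of them held a CDX match while the other held an HNF1 and an HNF4 match. Among 32851 RefSeq promoters of the same length, 6.43% held the HNF1 letters, 3.84% the HNF4 letters, 3.17% the FOXA letters, 9.99% the GATA letters, 10.8% the CDX letters and 12.4% the TATA box. The matched letters were thus in windows of genes with few or no reads as well as in that of Pgc, and a match or its absence describes the sequence only. B4galnt2 had 18 CpG dinucleotides and Cdx2 had 13 in these windows, against 5 for Pgc, 5 for Vil1, 2 for Lgals4, 2 for Fabp1 and a median of 6 over all promoters.

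The regulators that define intestinal identity were close to absent. Cdx2 (chr5:147300805-147307270, GRCm38, minus strand) had 0 reads in all 4 libraries, for which a count of 0 allows up to 2.75 to 3.19 normalized counts per library. Cdx1 (chr18:61018862-61036199) had 1 read in control replicate 1, or 0.918 normalized counts, and 0 reads in the other 3 libraries. The same held for 2 products of mature gut cells. Fabp1 (chr6:71199827-71205023), the fatty acid binding protein of enterocytes and hepatocytes, had 0 reads in all 4 libraries. Tff3 (chr17:31125306-31129646), the trefoil peptide of goblet cells, had 3 reads in control replicate 2, or 3.19 normalized counts, and 0 reads elsewhere. No fold is given for these 4 genes, because both groups were at or under 3 reads, and a difference between the groups was not detectable at this depth. The label of the group as gut endoderm therefore rested on the 6 other genes, which do not include a regulator of intestinal identity.

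Vil1 (chr1:74409376-74435559, plus strand) was the most abundant of the 10. It encodes villin, which bundles actin in microvilli. The libraries labelled Prox1 KO had 909 and 1121 normalized counts in replicates 1 and 2, and the control libraries had 1513 and 2089. Both Prox1 KO libraries were below both control libraries, with means of 1015 ± 149.8 and 1801 ± 407 (SD, n = 2 each). Within the pairs, control was 1.66-fold and 1.86-fold higher, and the ratios of Prox1 KO to control were 0.601 (95% exact counting interval 0.553 to 0.653) and 0.537 (0.499 to 0.578). These intervals, from the exact Clopper-Pearson bounds on the reads of each pair, cover counting error only. Exons of Vil1 overlap Usp37 on the opposite strand, and the strand setting of the counting is not given in the sources used here.

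Cdh17 (chr4:11758147-11817895, plus strand), which encodes the liver-intestine cadherin of intestinal epithelium, had 406 and 563 normalized counts in the Prox1 KO libraries and 849 and 1018 in the control libraries. The groups did not overlap. The control libraries were 2.09-fold higher in replicate 1 and 1.81-fold higher in replicate 2. Lgals4 (chr7:28833854-28841708, plus strand), a galectin found on the apical surface of enterocytes, had 41.6 and 49.9 normalized counts in Prox1 KO against 57.8 and 91.5 in control. It was also lower in both Prox1 KO libraries, by 1.39-fold and 1.84-fold within the pairs. The counting interval of the Prox1 KO to control ratio ran from 0.471 to 1.09 in replicate 1, so that the difference in this pair was not detectable at its depth, and from 0.377 to 0.779 in replicate 2.

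B4galnt2 and Pgc differed more. B4galnt2 (chr11:95865943-95914891, minus strand), the glycosyltransferase that completes the Sda antigen on gut glycans, had 9.35 and 19.5 normalized counts in Prox1 KO and 44.1 and 86.2 in control. Control was 4.71-fold higher in replicate 1 and 4.41-fold higher in replicate 2, so the fold was alike in both pairs although the level was higher in replicate 2 of either group. An antisense gene, Gm11534, overlaps B4galnt2, and 5.18% of the 100-base windows of the B4galnt2 exons occur in it. Pgc (chr17:47726842-47734482, plus strand), the pepsinogen of gastric chief cells, had 7.27 and 6.84 normalized counts in Prox1 KO and 65.2 and 21.3 in control. The Prox1 KO libraries lay close together while the control libraries differed from each other, and control was 8.96-fold higher in replicate 1 and 3.11-fold higher in replicate 2. The counting intervals of both ratios, 0.0433 to 0.242 and 0.115 to 0.791, overlapped each other and stayed below 1.

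Muc13 (chr16:33794037-33819934, plus strand), a transmembrane mucin of the intestinal surface, was the only covered gene without a common direction. It had 5.20 and 11.7 normalized counts in Prox1 KO against 7.34 and 8.52 in control, lower in Prox1 KO in replicate 1 and higher in replicate 2. The counting intervals of the ratios, 0.182 to 2.45 and 0.518 to 3.88, both included 1. Its mean of 8.20 was under the minimum of 10 normalized counts set for testing genes, and 1.85% of its exon windows occur in the antisense gene Gm15657.

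**Figure D1:**
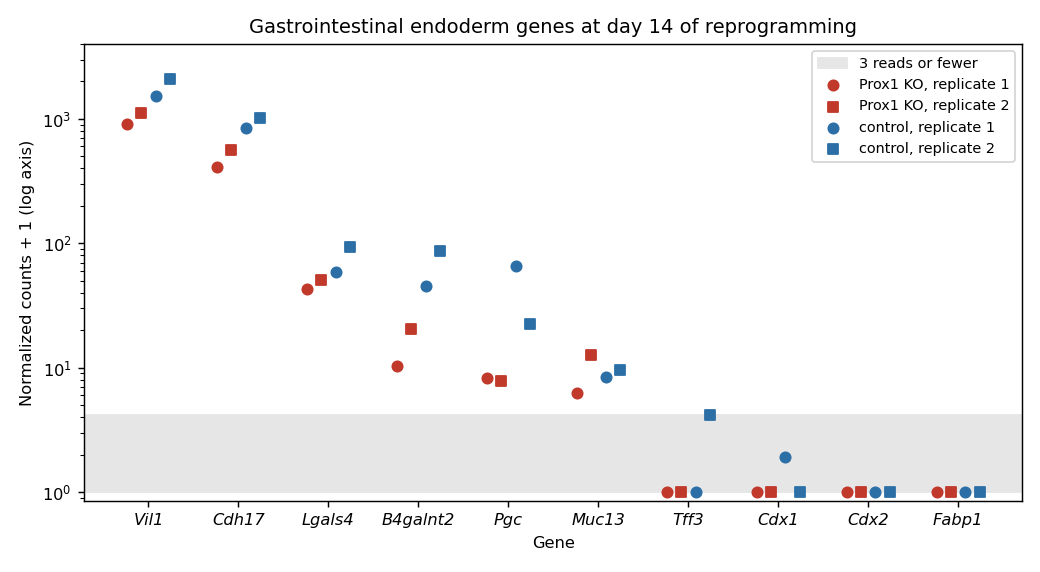
Normalized counts + 1 (log axis) of the 10 genes in the 4 libraries; red marks Prox1 KO, blue control, circles replicate 1 and squares replicate 2, and the grey band marks 3 reads or fewer. For Vil1, Cdh17, Lgals4, B4galnt2 and Pgc both red points lie below both blue points, for Muc13 they overlap, and Tff3, Cdx1, Cdx2 and Fabp1 lie in the band.

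**Figure D2:**
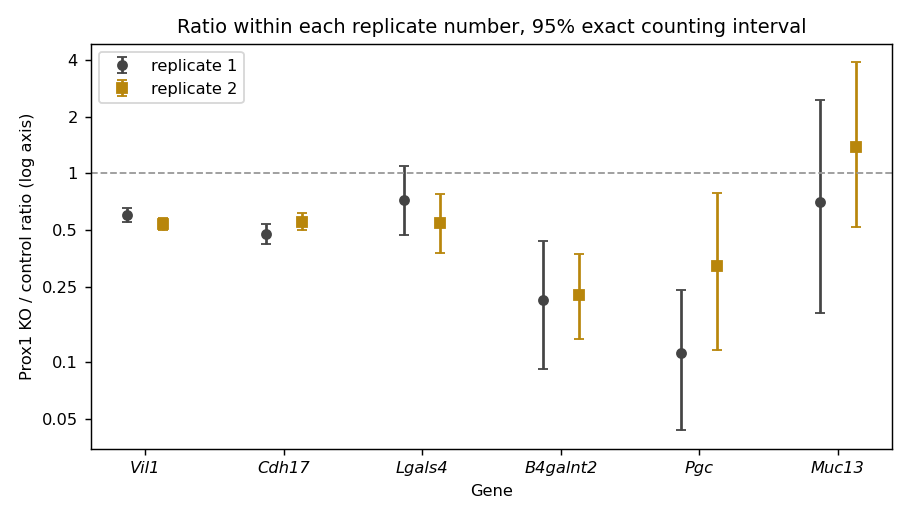
Ratio of Prox1 KO to control (log axis) within replicate 1 (circles) and replicate 2 (squares) for the 6 genes with more than 3 reads in some library; bars are 95% exact counting intervals. Vil1 and Cdh17 lie between 0.479 and 0.601, B4galnt2 and Pgc between 0.112 and 0.321, and the intervals of Muc13 include 1.

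Together, the groups did not overlap for 5 of the 10 genes, each lower in both Prox1 KO libraries. Among all 15809 tested genes, those whose mean over the libraries reached 10 normalized counts, both Prox1 KO libraries were below both control libraries in 22.6%; since the 10 genes were chosen on this contrast, nothing is read from their count. The median log2 difference over all 10 genes, Prox1 KO minus control, was -0.74, with -0.60 in replicate 1 and -0.86 in replicate 2. Over the 6 covered genes the median was -0.89, and over all tested genes it was -0.00. Vil1 and Cdh17 held at least 93.1% of the reads of the 10 genes in every library, and these reads numbered 1327 and 1813 in Prox1 KO and 2764 and 3116 in control. In bulk RNA, fewer cells that make these transcripts and less RNA per cell cannot be told apart.

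Levels can be compared between genes only per length. Per kilobase of exon, control libraries had 507 ± 115 normalized counts of Vil1 (SD, n = 2) and 209 ± 26.6 of Cdh17, the other genes being far below. Vil1 lay above 74.4% and Cdh17 above 54.7% of all tested genes on this scale. B4galnt2 with 37.8 ± 17.3, Lgals4 with 32.3 ± 10.3 and Pgc with 31.1 ± 22.4 per kilobase followed and could not be ordered, since their control values overlapped. In the Prox1 KO libraries the order was clearer, with 286 ± 42.2 per kilobase for Vil1, 108 ± 24.8 for Cdh17, 19.7 ± 2.53 for Lgals4, 8.39 ± 4.19 for B4galnt2 and 5.09 ± 0.220 for Pgc. B4galnt2 and Pgc were thus at levels like that of Lgals4 in control and below it in Prox1 KO, and were not separated from each other beyond their spread.

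Other gastrointestinal genes, from 4 lists that hold none of the 10, were tested with limma. These lists, and the family and marker lists below, were also chosen with earlier results of these data known. Their shares describe these data and are not independent support. Of 154 such genes 69 reached the expression minimum, and 19 of these were called lower and 7 higher in Prox1 KO at an adjusted p under 0.05, which is 27.5% and 10.1%. DESeq2 called 6 of the tested gut genes lower and 2 higher, and gave no adjusted p for part of them. Over all genes it called 471, of which 213 were higher. Limma without the replicate block called 0 of all genes (1783 had an unadjusted p under 0.05). Over all tested genes limma with the block called 6.29% lower and 5.09% higher, or 11.4% in either direction. The calls were unevenly spread over the lists. Genes of the enterocyte brush border and absorptive surface held 14 of the 19 lower calls, while lists of gastric genes, intestinal regulators and secretory or stem cells held 1 or 2 each.

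Of the 54 brush border genes 30 were tested, of which 14 (46.7%) were called lower and 1 (3.33%) higher, with a median log2 difference of -0.64. The largest decrease was that of Ggt1, a gamma-glutamyl transferase of apical membranes, with 17.7 and 29.3 normalized counts in Prox1 KO against 94.6 and 89.4 in control. Its log2 difference was -1.97 ± 0.27 (SE, limma adjusted p = 2.32e-04). Abcg8, a subunit of the sterol exporter of enterocytes and hepatocytes, had 5.20 and 5.86 normalized counts against 17.4 and 25.5. Its log2 difference was -1.76 ± 0.46 (limma adjusted p = 0.0200), and DESeq2 gave no adjusted p. Abcg8 reached the expression minimum only through the control libraries, with means of 5.53 in Prox1 KO and 21.5 in control. Reg3g, a secreted antibacterial lectin, had 6.24 and 20.5 against 53.2 and 29.8 normalized counts, so that its decrease was much larger in replicate 1 (log2 difference -2.91) than in replicate 2 (-0.52; limma adjusted p = 0.0252, and 0.0512 with quantile normalization).

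Cdhr2, a protocadherin that links the tips of microvilli, had 579.9 and 501 normalized counts in Prox1 KO against 1006 and 1219.9 in control, a log2 difference of -1.04 ± 0.09 (limma adjusted p = 4.27e-06). Eps8l3, of a family of actin regulators, had 69.6 and 93.8 against 145 and 188 normalized counts, a log2 difference of -1.02 ± 0.17 (limma adjusted p = 9.52e-04, DESeq2 adjusted p = 0.0694). The other 9 genes called lower had log2 differences between -0.44 and -1.01. They include the microvillar proteins Pls1, Myo7b and Eps8l2 and the membrane peptidases Anpep, Dpp4 and Enpep, which were named after their values were seen. Espn, an actin bundler, was the gene called higher, with 704 and 516 normalized counts against 518 and 458. The groups overlapped for Espn (limma adjusted p = 0.0381, DESeq2 adjusted p = 0.552). The 15 tested genes that were not called included Mttp, which loads lipid onto apolipoprotein B (log2 difference -0.03), and the digestive enzymes Lct (-0.43) and Mgam (0.29). Sis, the sucrase-isomaltase of mature enterocytes, had 0 reads in all libraries, as had 5 more genes of the list. In 13 of the 14 genes called lower, all but Dpp4, both Prox1 KO libraries were below both control libraries. EdgeR called all 14 and DESeq2 called 5 of them, with no adjusted p for 2.

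**Figure D3:**
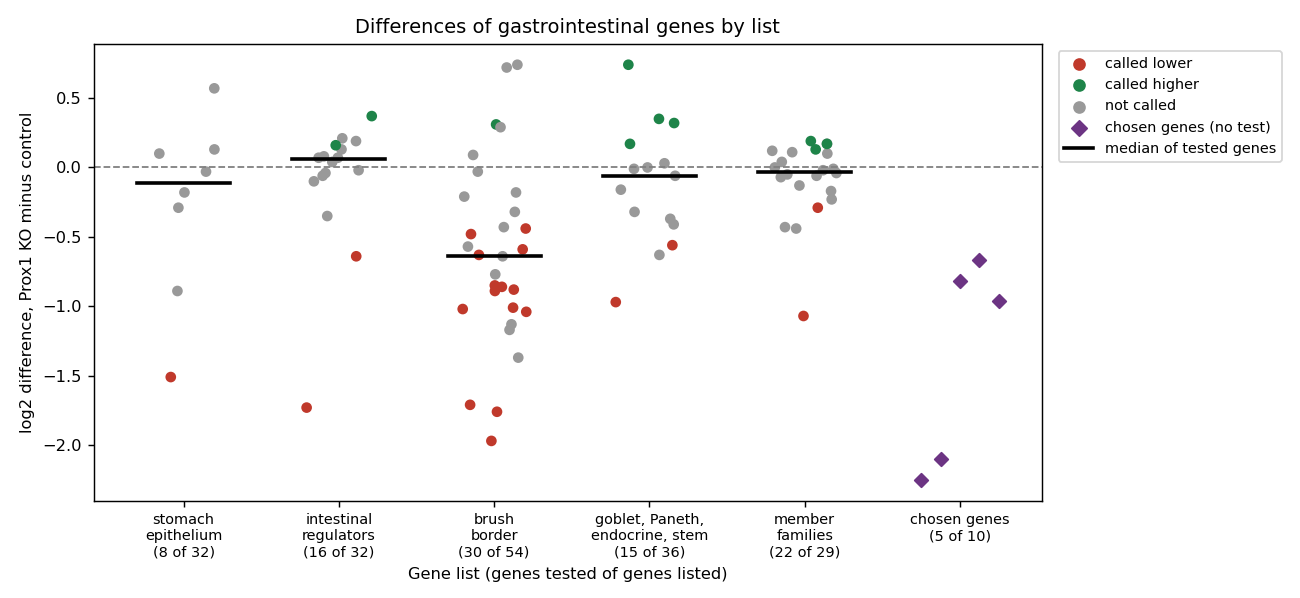
Log2 difference, Prox1 KO minus control, of the tested genes of each list; red and green points were called lower and higher by limma, grey points were not called, black bars are medians, and purple diamonds are the 5 chosen genes above the minimum, which were not tested. The brush border list has its median at -0.64, and those of the other 4 lists lie between -0.11 and 0.06.

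The transcription factors of gut epithelium did not move as a group. Of 32 listed, 16 were tested, with a median log2 difference of 0.06. Among them 2 were called lower and 2 higher (12.5% each), against 6.29% and 5.09% of all tested genes. Ehf, an epithelial ETS factor, had 1.04 and 12.7 normalized counts in Prox1 KO against 10.1 and 26.6 in control. Its log2 difference was -1.73 ± 0.53 (limma adjusted p = 0.0476, and edgeR adjusted p = 0.0852). Ehf reached the minimum of 10 only through the control libraries, with means of 6.87 in Prox1 KO and 18.4 in control. Esrrg, an orphan nuclear receptor, had 69.6 and 79.2 against 112 and 121 normalized counts (log2 difference -0.64 ± 0.19, limma adjusted p = 0.0353). Vdr, the vitamin D receptor, was higher by 0.37 ± 0.07 on the log2 scale (limma adjusted p = 0.00306) and Klf4 by 0.16 ± 0.04 (limma adjusted p = 0.0155). DESeq2 called none of the 16, with no adjusted p for 4 of them, Ehf included, and with quantile normalization Ehf and Esrrg were not called (limma adjusted p = 0.0921 and 0.0891). Hnf4g and Nr5a2, nuclear receptors of gut and liver epithelium, had 0 reads in all libraries.

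Gastric genes were mostly silent. Of 32 listed, 20 were at or under 3 reads in every library and 7 of these, Gkn1, Gkn2 and Atp4b among them, had 0 reads throughout. Of the 8 tested, 1 was called lower (12.5%, against 6.29% of all tested genes). This was Ctse, an aspartic protease of gastric surface cells and a relative of Pgc, with 10.4 and 17.6 normalized counts in Prox1 KO against 56.9 and 28.7 in control. The log2 difference was -1.51 ± 0.40 (limma adjusted p = 0.0216), being -2.35 in replicate 1 and -0.68 in replicate 2, DESeq2 gave no adjusted p, and like Pgc it was highest in control replicate 1. The gastric genes with the highest levels were not called: the water channel Aqp5 had 588 and 978 normalized counts against 470 and 1028 (log2 difference 0.13), and Anxa10 had 115 and 127 against 122 and 155 (-0.18).

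In the list of goblet, Paneth, endocrine, tuft and stem cell genes, 15 of 36 were tested, 2 were called lower and 4 higher. These are shares of 13.3% and 26.7%, against 6.29% and 5.09% of all tested genes. Lgr5, a receptor that marks intestinal stem cells but also other cells with active WNT signalling, had 469.7 and 288 normalized counts in Prox1 KO against 771 and 680.2 in control (log2 difference -0.97 ± 0.11, limma adjusted p = 2.99e-05). Prom1, a membrane protein of microvilli and of stem cells, had 106 and 136 against 182 and 172 (-0.56 ± 0.16, limma adjusted p = 0.0364). Cck, an endocrine peptide of gut and brain, had 1691 and 1736 against 1136 and 928 normalized counts and was higher by 0.74 ± 0.07 on the log2 scale (limma adjusted p = 7.68e-06). Sytl2 and Creb3l1, which act in vesicle release and secretion, were higher by 0.35 ± 0.08 (limma adjusted p = 0.00933) and 0.32 ± 0.04 (limma adjusted p = 1.37e-04). DESeq2 called Lgr5, Cck and Creb3l1 but not Prom1 or Sytl2, and with quantile normalization Prom1 was not called (limma adjusted p = 0.0901). The goblet cell gene Agr2 had 0 reads in all libraries.

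Close relatives of the 10 genes by family were compared next. Of 29 relatives among the listed genes, 22 were tested, with a median log2 difference of -0.03. Among them 2 were called lower (9.09%) and 3 higher (13.6%), against 6.29% and 5.09% of all tested genes. B4galnt3, which adds the same sugar as B4galnt2 to other glycans, had 42.6 and 68.4 normalized counts in Prox1 KO against 77.1 and 169 in control (log2 difference -1.07 ± 0.21, limma adjusted p = 0.00323). Vill, a villin-like protein, had 629.8 and 653 against 741 and 833 (-0.29 ± 0.08, limma adjusted p = 0.0196). Bace2, Lgals8 and Flii, relatives of Pgc, Lgals4 and Vil1, were higher by 0.19 (limma adjusted p = 0.0462), 0.17 (limma adjusted p = 0.0392) and 0.13 (limma adjusted p = 0.0388) on the log2 scale. DESeq2 called none of these 5, and with quantile normalization limma called only B4galnt3 and Vill. Of the relatives, 7 were below the minimum.

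Several lists of markers of other cell types also held a larger share of lower calls than all tested genes (6.29%). The share was 61.5% of the tested general epithelial markers, 70% of the hepatocyte markers and 66.7% of the visceral endoderm markers. General epithelial markers, such as Cdh1, Epcam and Krt8, were called lower in 8 of 13 tested genes and higher in none, and the summed level of the list was 10374 to 11253 normalized counts in Prox1 KO and 15629 to 20989 in control. Hepatocyte markers were called lower in 7 of 10, with sums of 19620 to 21575 against 27022 to 29638 normalized counts. Alb, the albumin gene, was not among them, with 3838 and 4766 normalized counts in Prox1 KO against 4197 and 5021. Visceral endoderm markers, of the yolk sac epithelium that also has a brush border, were called lower in 6 of 9, with sums of 16616 to 17847 against 22441 to 23142. Afp is in both the hepatocyte and the visceral endoderm list. DESeq2 called 7 general epithelial, 4 hepatocyte and 2 visceral endoderm markers lower, with no adjusted p for 3, 2 and 3 of the tested genes. None of the listed genes of these 3 cell types had 0 reads in all libraries.

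Fibroblast markers, which define the starting cells and were all detected, were called lower in 5 of 12 (41.7%) and higher in 1. DESeq2 called 2 of them lower and 0 higher. Their sums of 1089466 to 1283891 normalized counts in Prox1 KO and 1204284 to 1374229 in control overlapped. Cholangiocyte markers, which share Ggt1 with the brush border list, were called lower in 3 of 7 (42.9%), and their sums of 86618 to 111718 and 90032 to 128051 overlapped too. Spp1 alone had 81073 and 106099 normalized counts in Prox1 KO against 83444 and 120511 in control. The cholangiocyte sums thus follow mainly Spp1, and their overlap says little about the other genes of that list. The shares of the fibroblast and cholangiocyte lists were near that of the brush border list (46.7%). In the remaining lists 1 of 3 immune markers, 1 of 4 lung and foregut markers and 1 of 5 endothelial markers were called lower, and 2 endothelial markers and 1 of 4 trophoblast markers were called higher. The only pancreas marker tested was not called, and 4 of the 12 listed had 0 reads. The sums of the brush border list were 6253 to 6963 normalized counts in Prox1 KO and 8871 to 9841 in control, and without Ggt1, the only tested brush border gene that the hepatocyte, cholangiocyte, general epithelial or visceral endoderm lists also hold, 13 of 29 tested brush border genes were called lower, a count added after seeing the data. The part of these cell types in the values of the gut genes was not tested.

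**Figure D4:**
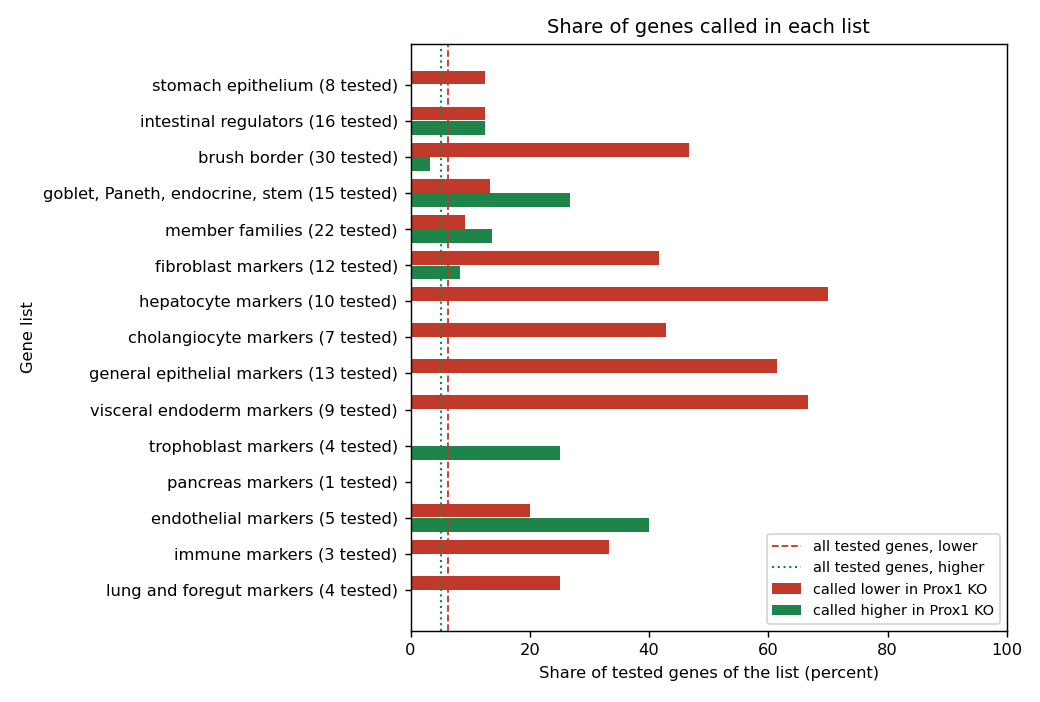
Share of the tested genes of each list called lower (red bars) or higher (green bars) in Prox1 KO, with the shares among all tested genes as lines at 6.29% (dashed) and 5.09% (dotted). Hepatocyte, visceral endoderm, general epithelial and brush border lists have the longest red bars, closely followed by the cholangiocyte and fibroblast lists. Several of the other lists have under 6 tested genes. All lists were chosen with earlier results of these data known.

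The 5 genes whose pattern over the 4 libraries was nearest to the mean profile of the 5 chosen genes above the minimum were Troap, Mettl5os, Knl1, Cldn7 and Lrp2, at distances of 0.0881 to 0.147 on the log2 scale. Likeness was the Euclidean distance between log2 values centred on each gene's mean, over 4 libraries only. The profile came from genes chosen on this contrast, so the genes nearest to it were lower in Prox1 KO by construction. Nothing is read from their direction. Of the chosen genes, Pgc reached the minimum only through the control libraries, with means of 7.06 in Prox1 KO and 43.2 in control. Cldn7, a tight junction claudin of epithelia, had 48.8 and 69.4 normalized counts in Prox1 KO against 132 and 162 in control. Lrp2, the endocytic receptor megalin of absorptive epithelia and yolk sac, had 232 and 286 against 702 and 743. Troap and Knl1, genes of the mitotic spindle and kinetochore, had 12.5 and 16.6 against 38.6 and 39.4, and 15.6 and 21.5 against 42.2 and 46.8. Mettl5os, an antisense RNA, had 7.27 and 10.8 against 23.0 and 26.6. The chosen genes themselves lay at 0.413 (Cdh17) to 1.55 (Pgc) from their own mean profile.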

How the data were processed

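RNA from day 14 cultures (dUTP libraries, paired reads of 100 bases) was mapped by the authors with STAR to mm10. The deposited signal values are read counts per gene divided by DESeq2 size factors, and 100% of them came out as whole reads, within 0.001, once multiplied back. The counting tool, annotation release and strand setting are not given in the sources used here. A second deposited table holds the authors' own comparison (shrunken log2 differences and p-values, adjusted with and without hypothesis weighting) and was not used.

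Genes whose mean reached 10 normalized counts (15809 of 55397) were tested with limma 3.58.1 (R 4.3.3) on log2(normalized counts + 1), with an intensity trend, the replicate number as a block and Benjamini-Hochberg adjustment at 0.05. Fold changes on this scale understate those of low genes. EdgeR 4.0.16 (quasi-likelihood) and DESeq2 1.42.0 were run on the recovered reads as alternatives. The scripts were tested on simulated data. The study's methods use the primary MEF line as covariate without tying it to libraries. The replicate number was taken to stand for it, an assumption, and same-numbered libraries deviated together (r = 0.402 over 15809 genes). Libraries of a group differed beyond sampling noise. Nothing in the labels says that replicates came from separate embryos, so p-values concern these libraries only. In limma the variance of each gene was drawn toward the trend over all tested genes. The limma SE and p-values therefore do not measure a gene's own spread between the pairs, and they depend on which genes are tested. For Cdhr2 the limma adjusted p was 4.27e-06 with the minimum of 10 and 1.84e-40 with all genes above a mean of 0.

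The 10 genes and all lists were chosen with earlier results of these data known. Named beside the 10 were, in each gut or family list, all called genes up to the 5 largest differences, the 2 highest tested genes where fewer than 2 were called, Prox1 and the 5 nearest profiles. Gene coordinates are from GENCODE vM21 (GRCm38), to which 55137 of 55397 identifiers matched. Counting intervals are exact (Clopper-Pearson, 95%). Alternatives were other pseudocounts, minimums, scalings and tests, and leaving out each replicate.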

Additional observations from a re-analysis of the deposited data

How the results depend on the processing

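With only 2 pairs, the calls depend on the replicate block, which rests on the assumption that the replicate number is the MEF line. With no replicate block, limma called 0 genes in place of 1798 (1783 had an unadjusted p under 0.05, of 3751 with the block), and hence 0 other gastrointestinal genes lower, 0 higher and 0 relatives, although 13 of the 14 brush border genes called lower kept an unadjusted p under 0.05. DESeq2 with the block called 471 genes, with 6 other gastrointestinal genes lower, 2 higher and 0 relatives, and 5 brush border genes lower in place of 14. The count of relatives called, 5, was 8 with a minimum mean of 1 and 2 with quantile normalization. The other settings moved none of these counts by over 1.5 times. The median log2 difference of the 10 genes, -0.74, was -0.39 with a pseudocount of 10 and -0.96 over the 5 genes with a mean of at least 10, a setting added after seeing the data. It ran from -0.86 to -0.60 when either replicate was left out. Muc13 changed direction with a pseudocount of 10 (0.02) and without replicate 1 (0.42, against -0.43 without replicate 2), and Aqp5 without replicate 1 (-0.07, against 0.32). Leaving the omission of a replicate aside, 222 fits of 23 named genes under alternatives gave 0 changes of sign, 42 lost calls and 1 gained call (Prox1). The 10 chosen genes are not among these 23. Without the block and with other minimums the log2 difference is the same by construction, so no sign could change in those fits. Leaving out a replicate gives 1 pair and no test, and edgeR and quantile normalization gave no median, since untested genes were not fitted. Depth limits the genes at or under 3 reads, for which no difference was detectable, and the low counts of Pgc, B4galnt2, Lgals4 and Muc13. The causes of these changes were not tested.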
